A study of Mus musculus with 12 samples.

Results

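Trp53, which encodes the transcription factor p53, and 9 genes that p53 is known to control were followed in the corpus callosum of mice with and without cuprizone. The genes were Trp53, Mdm2, Cdkn1a, Ccng1, Gadd45a, Bax, Bbc3, Phlda3, Trp53inp1 and Ei24, taken from the deposited table by gene symbol. All 10 were found, among 15584 genes in the table. Each was listed above 1 FPKM (fragments per kilobase of transcript, scaled to the total mapped) in all 12 libraries, with the lowest value at 3.003 for Trp53inp1, so all 10 were tested.

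The corpus callosum is a large white matter tract between the hemispheres of the brain, and cuprizone is a copper chelator that kills its oligodendrocytes, the cells that make myelin. The 4 groups of 3 libraries were AHR CKO CPZ, AHR CKO Ctrl, WT CPZ and WT Ctrl. AHR CKO mice lacked the aryl hydrocarbon receptor (AHR), a ligand-activated transcription factor, in microglia, the brain's own macrophages, while WT mice were wild type. CPZ stands for the cuprizone model and Ctrl for control treatment. The sources used here do not give the Cre line, the dose and length of cuprizone treatment, or the age and sex of the mice. The labels do not state whether 3 animals stand behind the 3 libraries of each group, so the p-values reflect a spread between libraries that may be technical.

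The p53 protein is held low in resting cells by Mdm2, a ubiquitin ligase that p53 itself induces, and is stabilised after DNA damage and other stress. Stable p53 raises genes that halt the cell cycle, such as Cdkn1a, and genes that permeabilise mitochondria in apoptosis, such as Bax and Bbc3. Several of these genes also answer to other stress factors, among them the ATF4 branch of the integrated stress response, which is active in oligodendrocytes of cuprizone-treated mice. Because p53 is controlled mainly at the protein level, the RNA level of Trp53 is not a measure of its activity.

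The promoters are printed because they show which of these genes carry letters that p53 is known to bind close to their start. A p53 decamer is 10 bases long, its pattern reads the same on both strands, and p53 binds a pair of them separated by a short gap. RefSeq promoters (GRCm38.p6, 250 bases before to 50 after the start) were held for 9 of the 10 genes, and 7 of these 9 had a decamer in at least 1 of their promoters. Across all genes with such a promoter the share was 9.55% of 27025. Only exact matches to the pattern were counted. Cdkn1a alone had a pair of exact matches within 13 bases of each other, in the first of its 2 promoters. This promoter lies at chr17:29090729-29091028 on the plus strand. The other, at chr17:29093519-29093818 on the plus strand, had no exact match. Such pairs stood in 24 of 32851 promoters (0.0731%). The decamers, in capitals, start at positions -73 and -51, counting the base before the start as -1, with 12 bases between them. The 10 bases right after the second decamer, tgacatgttc, miss the pattern at their first base only and are not in capitals.
Cdkn1a: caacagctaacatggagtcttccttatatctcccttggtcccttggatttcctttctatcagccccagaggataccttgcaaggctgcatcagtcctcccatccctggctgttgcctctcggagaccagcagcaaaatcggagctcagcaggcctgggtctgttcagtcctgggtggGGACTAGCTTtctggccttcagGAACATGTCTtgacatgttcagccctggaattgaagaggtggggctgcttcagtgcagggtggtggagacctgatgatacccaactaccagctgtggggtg
For the other 6 genes a window of 50 bases around the decamer is given, 5′ to 3′ on the strand of the gene, with the decamer in capitals. They lie at chr11:69580264-69580313 (plus strand) in Trp53, chr10:117710915-117710964 (minus strand) in Mdm2, chr11:40755442-40755491 (minus strand) in Ccng1, chr6:67037418-67037467 (minus strand) in Gadd45a, chr7:45467070-45467119 (minus strand) in Bax and chr9:36797315-36797364 (minus strand) in Ei24. The decamer starts at position -75 in Trp53, -186 in Mdm2, -185 in Ccng1, -40 in Gadd45a, -201 in Bax and -10 in Ei24.
Trp53: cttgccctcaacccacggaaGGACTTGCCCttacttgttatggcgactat
Mdm2: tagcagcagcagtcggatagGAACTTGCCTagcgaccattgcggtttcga
Ccng1: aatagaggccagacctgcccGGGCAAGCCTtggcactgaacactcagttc
Gadd45a: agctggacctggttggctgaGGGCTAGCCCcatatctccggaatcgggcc
Bax: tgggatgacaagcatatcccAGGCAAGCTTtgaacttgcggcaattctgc
Ei24: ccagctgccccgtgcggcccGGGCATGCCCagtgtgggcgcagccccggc
No decamer was found in the windows of Bbc3 (gene at chr7:16308393-16318205, plus strand) or Phlda3 (chr1:135766119-135769136, plus strand), and Trp53inp1 (chr4:11156431-11174379, plus strand) is named only. The promoter of Phlda3 as held ends in gaacatgt, which follows the pattern up to the edge. A decamer cut there would not be counted. A match is a description of letters and not a bound site, and p53 sites inside a gene, such as those known in introns of Mdm2 and Ccng1, lie outside these windows.

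Across the 12 libraries FPKM values summed to between 447156 and 519470, and libraries of the same group correlated with r between 0.972 and 0.993 across genes. Read counts are not in the table used here, and the depth of the libraries is not known from it. Ahr was listed between 1.41 and 2.57 FPKM with all groups overlapping, which checks no label, since the tissue holds many cells other than microglia. Cx3cr1, a receptor gene of microglia, stood apart in 3 of the 6 AHR CKO libraries. It was at 1.16 FPKM in AHR CKO CPZ replicate 1, and at 1.05 and 0.801 in AHR CKO Ctrl replicates 1 and 3. The other AHR CKO libraries had 9.598 to 29.6 and the WT libraries 22.6 to 69.4. Calls in AHR CKO are therefore also given without those 3 libraries, which leaves 2 AHR CKO CPZ libraries and 1 AHR CKO Ctrl library that is assumed to vary like the other groups.

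With cuprizone, the cell cycle inhibitor gene Cdkn1a rose about 4.5-fold in both genotypes, and Ccng1 and Bbc3 rose by smaller amounts in both. Gadd45a passed the test in AHR CKO tissue. Trp53, Mdm2, Bax, Phlda3, Trp53inp1 and Ei24 passed in neither genotype. Of the 10 genes, 4 were called higher in AHR CKO CPZ against AHR CKO Ctrl, where 7.22% of all tested genes were, and 3 were called higher in WT CPZ against WT Ctrl, where 9.08% were (limma on log2(FPKM + 1), Benjamini-Hochberg adjusted p under 0.05). None of the 10 was called lower, against 2.98% of all genes in AHR CKO and 7.81% in WT. In either direction 10.2% of all tested genes were called in AHR CKO and 16.9% in WT. The median log2 change of the 10 was 0.39 in AHR CKO, against -0.01 over all tested genes, and 0.28 in WT, against -0.04. In bulk tissue, fewer cells of a type and less RNA per cell cannot be told apart.

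**Figure D1:**
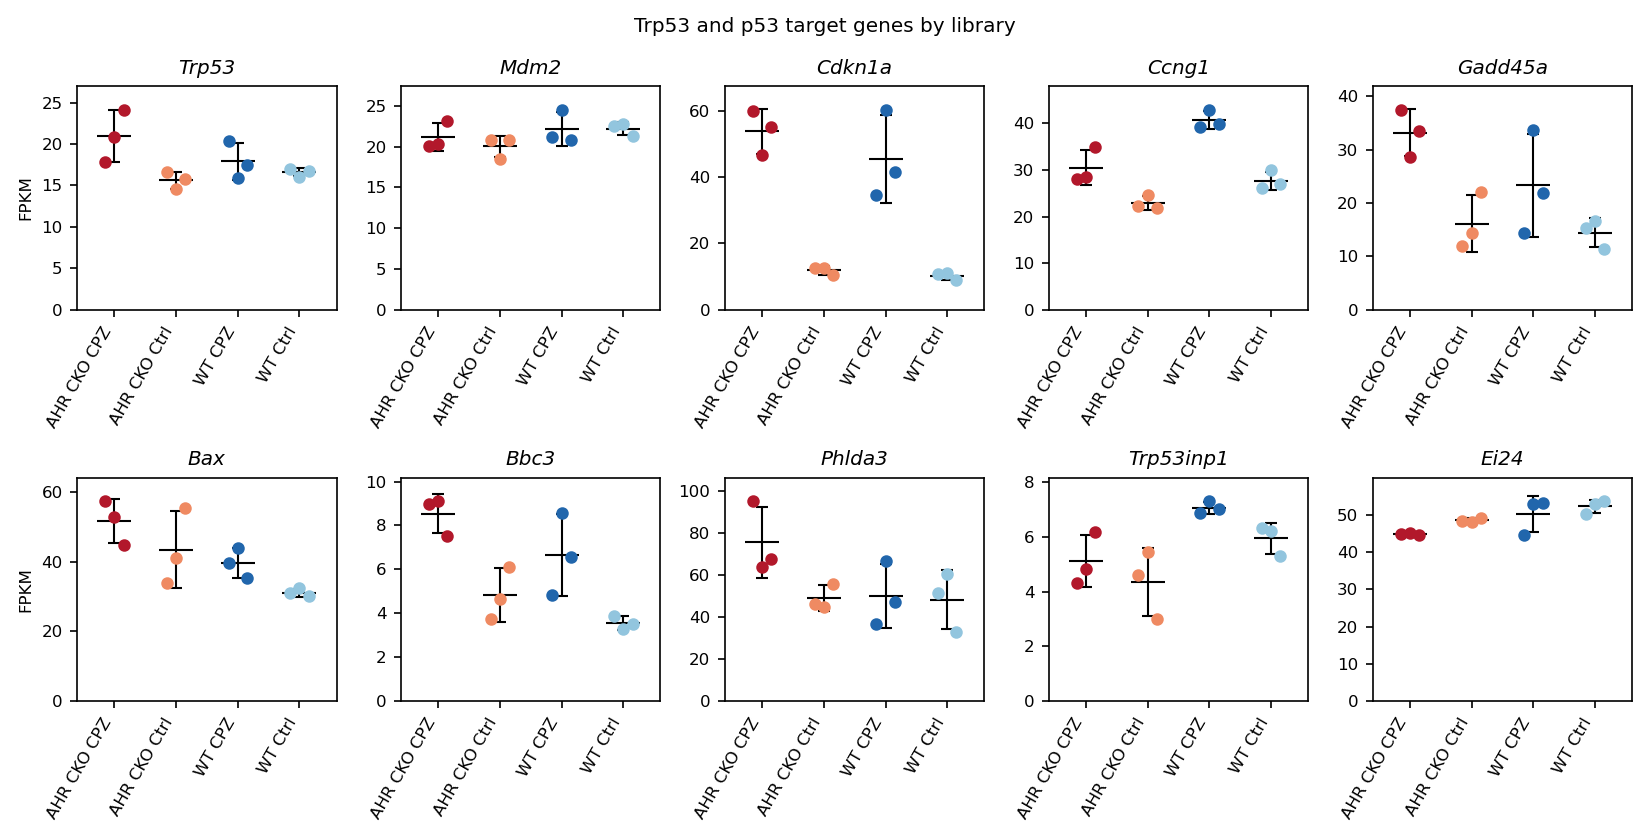
FPKM of the 10 genes in each library (points) with the group mean and SD (bars, n = 3), for AHR CKO CPZ, AHR CKO Ctrl, WT CPZ and WT Ctrl. All 6 cuprizone libraries lie above all 6 control libraries for Cdkn1a, while for Mdm2 the cuprizone and control groups overlap within each genotype.

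Trp53 itself was called in neither genotype. It was at 17.8, 20.9 and 24.1 FPKM in AHR CKO CPZ libraries, against 16.6, 14.6 and 15.7 in AHR CKO Ctrl libraries. In WT CPZ libraries it was at 20.4, 15.9 and 17.4 FPKM, against 16.99, 16.04 and 16.7 in WT Ctrl libraries. In AHR CKO all 3 cuprizone values lay above the controls, while in WT 1 cuprizone library lay below all controls. The log2 change was 0.39 ± 0.11 (SE) in AHR CKO, with an adjusted p of 0.0508 that misses the threshold, and 0.10 ± 0.11 in WT (adjusted p = 0.622). The AHR CKO value passed under 5 of 24 alternative settings, among them median-of-ratios scaling (adjusted p = 0.0434) and leaving out AHR CKO CPZ replicate 1 (0.0165) or WT CPZ replicate 1 (0.0391) or 2 (0.0451), the WT libraries through the common spread. In the order of group means, AHR CKO CPZ stood first, then WT CPZ, WT Ctrl and AHR CKO Ctrl, and each neighbour in this order overlapped the next.

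Mdm2, the ubiquitin ligase that degrades p53 and one of its best known targets, showed no call. It ranged over 20.1 to 23.2 FPKM in AHR CKO CPZ and 18.5 to 20.8 in AHR CKO Ctrl libraries. The WT ranges were 20.8 to 24.5 in CPZ and 21.3 to 22.8 in Ctrl. The highest of the 12 libraries was only 1.32 times the lowest. The log2 change was 0.08 (95% interval -0.12 to 0.27) in AHR CKO and -0.01 (-0.20 to 0.19) in WT.

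Of the genes that act on the cell cycle, Cdkn1a changed most among the 10. It encodes p21, which blocks cyclin-dependent kinases. Cdkn1a was at 59.9, 46.6 and 55.2 FPKM in AHR CKO CPZ libraries, against 12.7, 12.5 and 10.4 in AHR CKO Ctrl libraries. WT CPZ libraries had 34.7, 60.2 and 41.6 FPKM, against 10.7, 10.9 and 8.85 in WT Ctrl libraries. The lowest cuprizone library lay far above the highest control library, and WT CPZ replicate 2 was well above the other 2 of its group. The fold was 4.53 in AHR CKO (log2 change 2.09 ± 0.17 SE, adjusted p = 1.81e-05) and 4.48 in WT (2.03 ± 0.17, adjusted p = 1.2e-05). Both calls held under all 24 alternatives, with log2 changes of 1.87 to 2.19 in AHR CKO and 1.81 to 2.20 in WT. Without the 3 AHR CKO libraries of low Cx3cr1 the AHR CKO log2 change was 1.93 (adjusted p = 0.00754).

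Ccng1 encodes cyclin G1, which recruits a phosphatase to Mdm2. It was at 28.1, 28.5 and 34.9 FPKM in AHR CKO CPZ libraries, against 22.2, 24.6 and 21.9 in AHR CKO Ctrl libraries. Values of 39.3, 42.9 and 39.9 FPKM were found in WT CPZ libraries, against 26.2, 29.9 and 27.03 in WT Ctrl libraries. In both genotypes every cuprizone library lay above every control library. The fold was 1.33 in AHR CKO (log2 change 0.39 ± 0.10 SE, adjusted p = 0.0212) and 1.47 in WT (0.54 ± 0.10, adjusted p = 0.00186). The WT call held under all 24 alternatives. The AHR CKO call was lost under 6, among them leaving out AHR CKO CPZ replicate 3 (adjusted p = 0.0743) or AHR CKO Ctrl replicate 1 (0.0854) or 3 (0.0605), and without the 3 libraries of low Cx3cr1 (log2 change 0.35, adjusted p = 0.311).

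Gadd45a encodes a stress sensor that binds PCNA and p21 and acts on the G2/M checkpoint. It was at 37.4, 28.6 and 33.5 FPKM in AHR CKO CPZ libraries, against 11.8, 14.4 and 22.1 in AHR CKO Ctrl libraries. WT CPZ libraries had 14.4, 33.6 and 21.9 FPKM, against 15.3, 16.6 and 11.4 in WT Ctrl libraries. The AHR CKO groups did not overlap, whereas WT CPZ replicate 1 lay among the WT controls. The fold was 2.06 in AHR CKO (log2 change 1.03 ± 0.27 SE, adjusted p = 0.031) and 1.61 in WT (0.59 ± 0.27, adjusted p = 0.168). The AHR CKO call was lost without AHR CKO CPZ replicate 1 (adjusted p = 0.101) or 3 (0.081), without AHR CKO Ctrl replicate 1 (0.136) or 2 (0.107), after a length and GC correction (0.0732), and without the 3 libraries of low Cx3cr1 (log2 change 1.05, adjusted p = 0.25). The WT change passed under 2 of 24 alternatives, without WT CPZ replicate 1 (adjusted p = 0.0399) and with weights for library quality (0.0255). On the opposite strand Gadd45a shares 859 bases with E230016M11Rik, listed at 0.441 to 1.299 FPKM, and the sources used here do not say whether counting used strand.

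Of the genes that promote apoptosis, Bbc3, which encodes PUMA, a BH3-only protein that frees Bax, was called in both genotypes. It was at 8.99, 9.09 and 7.53 FPKM in AHR CKO CPZ libraries, against 3.73, 4.65 and 6.13 in AHR CKO Ctrl libraries. WT CPZ libraries had 4.83, 8.58 and 6.54 FPKM, against 3.87, 3.28 and 3.53 in WT Ctrl libraries. The groups did not overlap in either genotype, although AHR CKO Ctrl replicate 3 and WT CPZ replicate 1 came close to the other group. The fold was 1.77 in AHR CKO (log2 change 0.73 ± 0.18 SE, adjusted p = 0.0237) and 1.87 in WT (0.72 ± 0.18, adjusted p = 0.016). The AHR CKO call was lost without AHR CKO CPZ replicate 1 (adjusted p = 0.0721) or 2 (0.0792), without AHR CKO Ctrl replicate 1 (0.113) or 2 (0.0803), and without the 3 libraries of low Cx3cr1 (log2 change 0.72, adjusted p = 0.234). The WT call was lost without WT CPZ replicate 2 (adjusted p = 0.0537) or WT Ctrl replicate 2 (0.0591).

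Bax encodes the protein that forms pores in the outer mitochondrial membrane. It was at 57.2, 52.6 and 44.8 FPKM in AHR CKO CPZ libraries, against 33.8, 40.98 and 55.5 in AHR CKO Ctrl libraries. WT CPZ libraries had 39.6, 43.8 and 35.3 FPKM, against 30.9, 32.3 and 30.04 in WT Ctrl libraries. The WT groups did not overlap, while AHR CKO Ctrl replicate 3 lay among the AHR CKO CPZ libraries. The log2 change was 0.26 (95% interval -0.07 to 0.60, adjusted p = 0.328) in AHR CKO and 0.33 (-0.001 to 0.67, adjusted p = 0.17) in WT. Without AHR CKO Ctrl replicate 3 the AHR CKO change passed (log2 change 0.45, adjusted p = 0.0458). In GENCODE M21, Bax shares 915 bases with Gm45808 on the same strand. Gm45808 is not in the deposited table, and the sources used here do not say how reads there were counted.

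Phlda3, Trp53inp1 and Ei24 were not called with cuprizone. Phlda3, a pleckstrin homology protein that inhibits Akt, was at 94.9, 63.9 and 67.6 FPKM in AHR CKO CPZ libraries, against 46.2, 44.6 and 55.9 in AHR CKO Ctrl libraries. The WT CPZ libraries had 36.8, 66.7 and 47.2 FPKM, against 51.2, 60.4 and 33.02 in WT Ctrl libraries. All AHR CKO CPZ libraries lay above the AHR CKO controls, and the WT groups overlapped. The log2 change was 0.60 ± 0.24 (SE, adjusted p = 0.15) in AHR CKO and 0.06 ± 0.24 (adjusted p = 0.905) in WT. Trp53inp1, whose product acts in p53-dependent stress and autophagy, ranged over 4.32 to 6.16 FPKM in AHR CKO CPZ and 3.003 to 5.45 in AHR CKO Ctrl, and over 6.86 to 7.29 in WT CPZ and 5.305 to 6.31 in WT Ctrl. Its WT groups did not overlap, yet the log2 change of 0.22 (adjusted p = 0.416) was not called. Ei24, an endoplasmic reticulum protein of autophagy, ranged over 44.4 to 44.996 FPKM in AHR CKO CPZ and 48.1 to 49.01 in AHR CKO Ctrl. In WT it ranged over 44.6 to 53.1 in CPZ and 50.2 to 53.5 in Ctrl. It was the only one of the 10 whose cuprizone libraries all lay below the controls, in AHR CKO, by a log2 change of -0.11 (adjusted p = 0.427).

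The cuprizone groups lay wholly above the control groups for 6 of the 10 genes in AHR CKO, where 14.3% of all tested genes did so, and for 5 of 10 in WT, where 15.8% did. The 1 gene wholly below in AHR CKO stands against 14.6% of all genes, and the 0 in WT against 18.9%. WT CPZ replicate 2 was the highest of its group for 8 of the 10 genes and WT CPZ replicate 1 the lowest for 7. AHR CKO Ctrl replicate 3 was the highest of its group for 6, and WT Ctrl replicate 3 the lowest for 6.

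Markers of other cells moved with cuprizone beside these genes. The summed FPKM of 7 microglial markers was 393 to 650.4 in AHR CKO CPZ, against 152 to 161 in AHR CKO Ctrl, and 553 to 838 in WT CPZ, against 173 to 195 in WT Ctrl. Of the 7, 3 were called higher in AHR CKO and 4 in WT, while 6 and 5 of the 7 rose by sign. Their sum includes Cx3cr1, which was low in 3 of the AHR CKO libraries. The sum of 6 astrocyte markers was 1953 to 2539 in AHR CKO CPZ, against 1102 to 1175 in AHR CKO Ctrl, and 2105 to 2620.03 in WT CPZ, against 986 to 1159 in WT Ctrl, with 4 of 6 called higher in each genotype. The sum of 9 mature oligodendrocyte markers was 4065 to 4975 in AHR CKO CPZ, against 9418 to 10047 in AHR CKO Ctrl, and 3034 to 3647 in WT CPZ, against 9753 to 17719 in WT Ctrl. Of these 9, 8 were called lower in AHR CKO and 9 in WT. None of the markers in these lists was listed at 0 in any library. The other 8 marker lists had no cuprizone call except 1 of 2 tested genes of blood-borne leukocytes, called higher in each genotype. The listed genes of that set were Ccr2, Ly6c2 and Ptprc, and Ptprc is not particular to blood-borne cells. A list without a call was not always unmoved. Striatal neuron markers had a median log2 change of -0.41 in AHR CKO and -0.99 in WT, and choroid plexus markers -0.08 and 1.29. The part of changed cell numbers in the rise of Cdkn1a, Ccng1, Bbc3 and Gadd45a was not tested.

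The change with cuprizone was then compared between genotypes by the interaction of genotype and cuprizone. None of the 10 genes passed (limma), against 0.0363% of all tested genes, 0.0145% with a higher and 0.0218% with a lower change in AHR CKO, and none had an unadjusted p under 0.05, against 9.56% of all genes. For Cdkn1a the difference in log2 change, AHR CKO minus WT, was 0.06 (95% interval -0.47 to 0.59). For Bbc3 it was 0.01 (-0.55 to 0.56) and for Ccng1 -0.14 (-0.44 to 0.15). The widest intervals were those of Gadd45a at 0.44 (-0.39 to 1.28) and Phlda3 at 0.54 (-0.20 to 1.29), and for Trp53 it was 0.29 (-0.06 to 0.64). The call of Gadd45a in AHR CKO and its miss in WT are therefore not shown to differ.

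**Figure D2:**
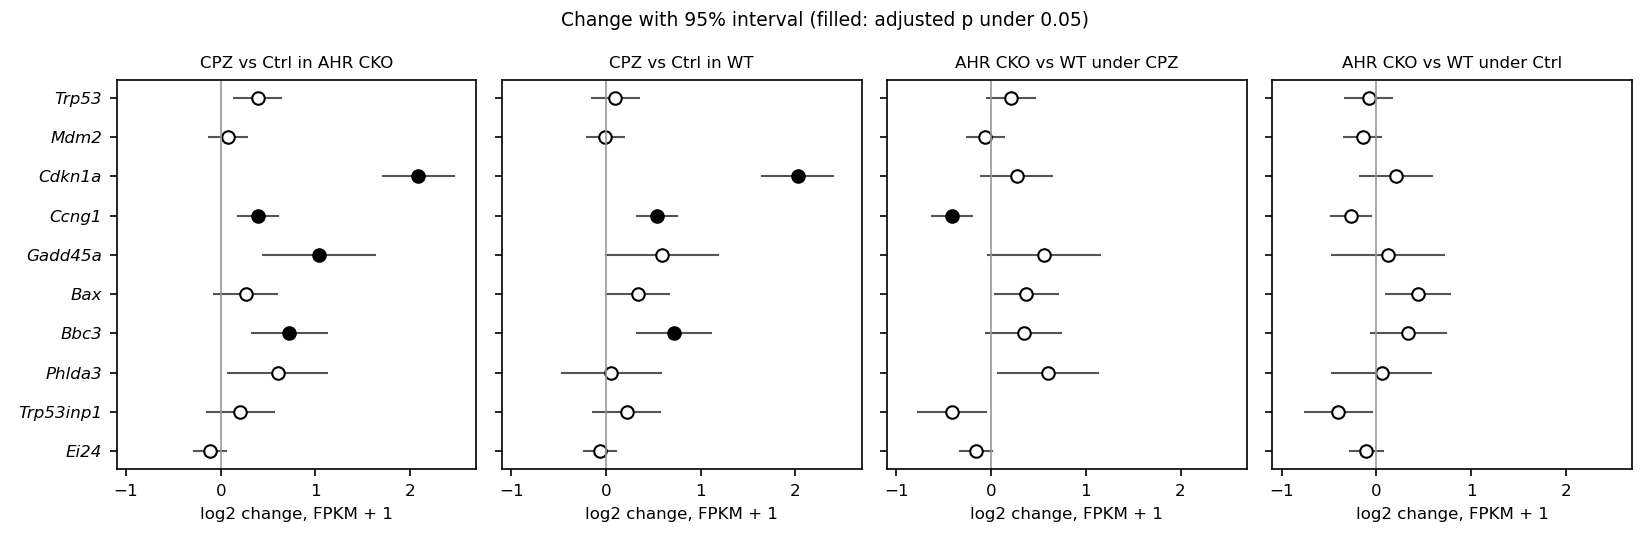
Change on the log2(FPKM + 1) scale with its 95% interval for the 10 genes, in the cuprizone comparison of each genotype and the genotype comparison under each treatment; filled points have an adjusted p under 0.05. Cdkn1a lies near 2 in both cuprizone panels, and in the genotype panels Ccng1 is the only filled point.

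Between genotypes, Ccng1 was lower in AHR CKO than in WT tissue under cuprizone and was the only 1 of the 10 to pass. It averaged 30.5 ± 3.82 FPKM in AHR CKO CPZ and 40.7 ± 1.92 in WT CPZ (SD, n = 3 each), a fold of 0.75 (limma, log2 change -0.41 ± 0.10 SE, adjusted p = 0.0158). That 1 lower call of 10 stands against 10.8% of all tested genes called lower, the 0 higher calls against 9.14%, and both together against 20.0%. At an unadjusted p under 0.05 there were 4 of the 10, Bax, Ccng1, Phlda3 and Trp53inp1, against 37.2% of all tested genes. The Ccng1 call was lost without AHR CKO CPZ replicate 1 (adjusted p = 0.067) or 2 (0.0546), with only the groups compared in the fit (0.0544), after a length and GC correction (log2 change -0.32, adjusted p = 0.0551) and without the 3 libraries of low Cx3cr1 (log2 change -0.36, adjusted p = 0.0909). Its value in AHR CKO Ctrl was also below WT Ctrl, at 22.9 ± 1.499 FPKM in AHR CKO Ctrl and 27.7 ± 1.93 in WT Ctrl (log2 change -0.27 ± 0.10 SE, adjusted p = 0.105).

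Under control treatment none of the 10 genes was called between AHR CKO and WT (limma), where 6.19% of all tested genes were, 1.42% higher and 4.76% lower. At an unadjusted p under 0.05 there were 3 of the 10, Bax, Ccng1 and Trp53inp1, against 27.6% of all genes. Bax averaged 43.4 ± 11.03 FPKM in AHR CKO Ctrl and 31.1 ± 1.16 in WT Ctrl (log2 change 0.44 ± 0.15 SE, adjusted p = 0.0957). Under cuprizone it averaged 51.5 ± 6.28 in AHR CKO CPZ and 39.6 ± 4.23 in WT CPZ (0.37 ± 0.15, adjusted p = 0.101). In both treatments all AHR CKO libraries lay above all WT libraries for Bax alone of the 10 genes, as they did for 13.5% of all genes under control treatment and 18.9% under cuprizone. They lay wholly below WT for Ccng1, Mdm2 and Ei24 under control treatment, where 21.9% of all genes did, and for Ccng1 and Trp53inp1 under cuprizone, where 20.0% did. Bax passed under control treatment without AHR CKO Ctrl replicate 1 (log2 change 0.60, adjusted p = 0.043), and under cuprizone without AHR CKO Ctrl replicate 3, which enters the common spread (adjusted p = 0.0405). Trp53inp1 averaged 4.35 ± 1.24 FPKM in AHR CKO Ctrl and 5.95 ± 0.557 in WT Ctrl (log2 change -0.40 ± 0.16, adjusted p = 0.138). Under cuprizone it averaged 5.11 ± 0.947 in AHR CKO CPZ and 7.06 ± 0.215 in WT CPZ (-0.41 ± 0.16, adjusted p = 0.0915), and passed without AHR CKO CPZ replicate 3 (log2 change -0.53, adjusted p = 0.0461) or AHR CKO Ctrl replicate 3 (0.0376). Cdkn1a, at 53.9 ± 6.77 FPKM in AHR CKO CPZ and 45.5 ± 13.2 in WT CPZ, was not called between genotypes (log2 change 0.27, 95% interval -0.11 to 0.65), but passed without WT CPZ replicate 2 (log2 change 0.49, adjusted p = 0.0335). Phlda3 and Gadd45a also passed without that library, at log2 changes of 0.82 and 0.86 (adjusted p = 0.0347 and 0.0341).

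Markers of other cells differed between genotypes as well. Of the 9 mature oligodendrocyte markers, 3 were called higher in AHR CKO under cuprizone and 1 lower under control treatment, and 2 of the 7 microglial markers were called lower under cuprizone. Of fibroblast markers 1 of 3 tested was called higher under both treatments. Under cuprizone 1 of 7 neuronal markers was called higher. Called lower under cuprizone were 1 of 4 endothelial, 1 of 3 pericyte and smooth muscle and 1 of 2 leukocyte markers. Striatal neuron markers, 3 in all, summed to 446 to 882 FPKM in AHR CKO CPZ, against 229 to 436 in WT CPZ. Their sums were 680 to 1025 in AHR CKO Ctrl, against 343 to 1404 in WT Ctrl, and none of the 3 was called between genotypes. The summed FPKM of 4 choroid plexus markers varied widely within groups, over 999 to 3710.2 in AHR CKO CPZ, 409.9 to 3535 in AHR CKO Ctrl, 55.4 to 2945 in WT CPZ and 41.03 to 147 in WT Ctrl, with none called. The part of these markers in the genotype differences was not tested.

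Genotype differences over all genes differed by transcript length, and those of the 10 genes are set beside this as a description. Over all tested genes under cuprizone, the median log2 change of AHR CKO against WT was 0.32 for transcripts under 1500 nt, 0.15 from there to 3000 nt, -0.07 to 6000 nt and -0.29 beyond. Under control treatment the same medians were 0.21, 0.07, -0.07 and -0.26. The 4 shortest transcripts among the 10 genes were Bax (1100 nt), Gadd45a (1223 nt), Phlda3 (1435 nt) and Bbc3 (1814 nt), and their log2 changes under cuprizone were 0.37, 0.56, 0.60 and 0.34. Under control treatment the same 4 were at 0.44, 0.12, 0.06 and 0.34. The 2 longest were Trp53inp1 (5432 nt) and Ccng1 (3512 nt), at -0.41 each under cuprizone and -0.40 and -0.27 under control treatment. Between these, Cdkn1a (2080 nt), Ei24 (2309 nt), Mdm2 (3145 nt) and Trp53 (3275 nt) were at 0.27, -0.16, -0.06 and 0.21 under cuprizone, so the order of the 10 did not follow length throughout. With the trend on length and GC content removed from each library, Bax had a log2 change of -0.12 under cuprizone and 0.08 under control treatment, and Bbc3 had -0.11 and 0.01. Trp53inp1 stood at -0.15 and -0.13 after this correction, Gadd45a at 0.31 and -0.03, and Phlda3 at 0.17 and -0.25. Ccng1 stood at -0.32 and -0.14, Trp53 at 0.14 and -0.12, and Cdkn1a at 0.07 and 0.08. Ei24 was then the only 1 of the 10 to pass under cuprizone, lower in AHR CKO (log2 change -0.27, adjusted p = 0.0474). Changes with cuprizone over all tested genes also differed by length. Their medians in the same classes were 0.15, 0.05, -0.05 and -0.16 in AHR CKO, and 0.05, -0.01, -0.05 and -0.10 in WT. The cuprizone changes of Cdkn1a were 1.92 in AHR CKO and 1.93 in WT after the correction. In AHR CKO the correction moved Bax from 0.26 to 0.05 and Phlda3 from 0.60 to 0.41, but Trp53inp1 from 0.21 up to 0.34. Ccng1 there stayed near 0.40.

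**Figure D3:**
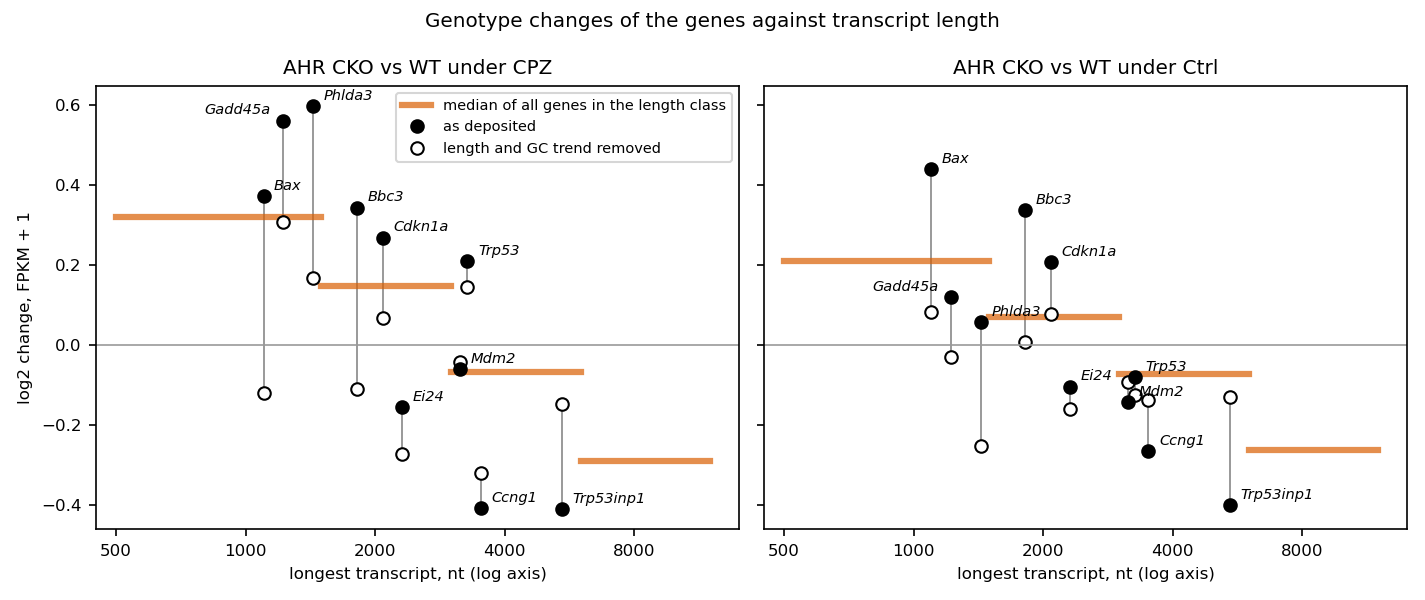
Change of AHR CKO against WT on the log2(FPKM + 1) scale for the 10 genes against the length of the longest transcript (log axis), under cuprizone and control treatment. Filled points are values as deposited, open points those with the length and GC trend removed, and thick lines the median of all tested genes in a length class, which fall from 0.32 to -0.29 under cuprizone.

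A wider set of 122 genes of p53 signalling and cell death, in 11 lists that share some genes, was followed beside the 10, and 112 of them were tested. With cuprizone 27 were called higher and 2 lower in AHR CKO (25.9% of 112, against 10.2% of all tested genes). In WT 31 were called higher and 5 lower (32.1%, against 16.9%). Genes that passed the filter only through their cuprizone libraries had to differ, so these counts are a description. Among 26 tested further p53 target genes, 6 rose and none fell in AHR CKO, and 7 rose and 1 fell in WT. Their median log2 changes were 0.01 in AHR CKO and 0.07 in WT. Of those that rose, Eda2r in both genotypes and Pmaip1 in WT, named for this limit, averaged under 1 FPKM in both control groups. These 2 were tested because of their cuprizone libraries. Ephx1, an epoxide hydrolase, averaged 43.6 ± 5.31 FPKM in AHR CKO CPZ and 22.1 ± 3.38 in AHR CKO Ctrl, and 38.9 ± 6.13 in WT CPZ and 16.3 ± 0.734 in WT Ctrl (adjusted p = 0.000505 in AHR CKO and 5.81e-05 in WT). Sesn2, a sestrin that restrains mTORC1 and is also induced by ATF4, averaged 8.404 ± 2.05 in AHR CKO CPZ and 4.11 ± 0.741 in AHR CKO Ctrl, and 6.88 ± 0.5804 in WT CPZ and 3.43 ± 0.262 in WT Ctrl. Aen, an apoptosis-enhancing nuclease, rose 1.44-fold in AHR CKO and 1.54-fold in WT. Btg2, an antiproliferative gene, rose 2.39-fold in WT (adjusted p = 0.00132). The 1 gene that fell in WT, named after its value was seen, was Rrm2b, a ribonucleotide reductase subunit (fold 0.754, adjusted p = 0.0382), a call lost without any single WT library or AHR CKO Ctrl replicate 2 (adjusted p up to 0.112). Without the 3 libraries of low Cx3cr1 the AHR CKO calls of Ephx1, Sesn2 and Aen were lost (adjusted p = 0.0944, 0.0906 and 0.174). Of all 29 wider AHR CKO calls, 13 held without those libraries.

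Among 13 tested regulators of p53, none rose and 1 fell in each genotype. It was Hipk2, a kinase that phosphorylates p53, at 5.43 ± 1.64 FPKM in AHR CKO CPZ and 11.8 ± 2.71 in AHR CKO Ctrl, and at 13.1 ± 1.199 in WT CPZ and 32.7 ± 4.39 in WT Ctrl (adjusted p = 0.00535 in AHR CKO and 0.000697 in WT). Without the 3 libraries of low Cx3cr1 its AHR CKO call missed the threshold (adjusted p = 0.0507). Hipk2 was also lower in AHR CKO than in WT, under cuprizone by a log2 change of -1.17 (adjusted p = 0.00565) and under control treatment by -1.41 (adjusted p = 0.0149). The call under cuprizone held under all alternatives, while that under control treatment was lost without AHR CKO Ctrl replicate 2 or 3, without WT Ctrl replicate 1 or 2, and without the 3 libraries of low Cx3cr1 (largest adjusted p = 0.0934). Among 8 tested paralogues of the 10 genes, 3 rose and 1 fell in AHR CKO and 2 rose and 1 fell in WT. Gadd45g averaged 60.9 ± 5.89 FPKM in AHR CKO CPZ and 35.8 ± 3.53 in AHR CKO Ctrl, and 36.7 ± 3.78 in WT CPZ and 21.5 ± 5.24 in WT Ctrl. Its AHR CKO call was lost without the 3 libraries of low Cx3cr1 (adjusted p = 0.286). Trp53inp2, an autophagy gene, fell to 57.4 ± 8.19 in AHR CKO CPZ, against 120.1 ± 7.76 in AHR CKO Ctrl, and to 59.6 ± 0.503 in WT CPZ, against 157 ± 25.3 in WT Ctrl. None of 3 tested INK4 inhibitors, a second family of cell cycle brakes, was called, and Cdkn2d, the highest of them, averaged 53.3 ± 8.06 FPKM in AHR CKO CPZ and 51.8 ± 5.304 in AHR CKO Ctrl. Among 11 tested cell cycle genes only Ccnd1, cyclin D1, was called, at 23.8 ± 1.52 in AHR CKO CPZ and 13.7 ± 0.429 in AHR CKO Ctrl, and at 25.6 ± 1.899 in WT CPZ and 14.7 ± 1.43 in WT Ctrl.

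Genes of the death machinery itself were followed by branch. Of necroptosis and pyroptosis genes 6 were tested, and 2 of them, Pycard and Gsdmd, averaged over 1 FPKM in every group. Both rose in both genotypes. Pycard, the inflammasome adaptor ASC, averaged 4.67 ± 0.916 FPKM in AHR CKO CPZ and 1.07 ± 0.0629 in AHR CKO Ctrl, and 6.68 ± 1.29 in WT CPZ and 1.501 ± 0.387 in WT Ctrl. Gsdmd, the pore former of pyroptosis, rose 3.02-fold in AHR CKO and 2.87-fold in WT. Zbp1, Casp1, Casp4 and Nlrp3, the last named to complete the list, averaged under 1 FPKM in both control groups and were tested because of their cuprizone libraries, so their calls as higher in both genotypes were largely fixed by the filter. The AHR CKO calls of Casp1, Casp4 and Nlrp3 were lost without the 3 libraries of low Cx3cr1 (largest adjusted p over all alternatives 0.172, 0.195 and 0.155), that of Casp4 also without AHR CKO CPZ replicate 3, and those of Casp1 and Nlrp3 without AHR CKO CPZ replicate 2 or 3, any AHR CKO Ctrl library, WT CPZ replicate 3 or any WT Ctrl library. In WT the call of Nlrp3 was lost without WT CPZ replicate 1 (adjusted p = 0.052). Microglia are known to express many of these genes. Among 17 genes of caspases and the apoptosome, 2 rose in AHR CKO and 3 in WT, with medians of 0.11 and -0.01. Casp8, the initiator of receptor-driven death, averaged 2.46 ± 0.654 in AHR CKO CPZ and 1.24 ± 0.163 in AHR CKO Ctrl, and 3.36 ± 0.636 in WT CPZ and 1.51 ± 0.2796 in WT Ctrl. Its AHR CKO call (adjusted p = 0.0296) was lost on the TPM scale, with the replicate number as a block, with only the groups compared, without AHR CKO CPZ replicate 3 or any AHR CKO Ctrl library, and without the 3 libraries of low Cx3cr1 (adjusted p up to 0.332). Among 7 death receptor genes, Tnfrsf1a, the receptor of tumour necrosis factor, rose 3.12-fold in AHR CKO and 2.9-fold in WT, Fas rose in AHR CKO and Ripk1 in WT. The call of Ripk1 was lost without WT CPZ or WT Ctrl replicate 1 or 2 (adjusted p up to 0.105).

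Among 6 pro-survival BCL2 genes, 2 rose in AHR CKO and 3 in WT. Bcl2a1b and Bcl2a1a are near-identical copies whose reads the counting could split, so their values of 20.05 ± 5.67 and 4.11 ± 0.836 FPKM in AHR CKO CPZ are uncertain, against 1.19 ± 0.9104 and 0.786 ± 0.475 in AHR CKO Ctrl. Among 10 pro-death BCL2 genes, 1 rose in AHR CKO, and 4 rose and 2 fell in WT. Pmaip1, 1 of the 4, averaged under 1 FPKM in both control groups and was tested because of its cuprizone libraries. Bnip3l, a mitophagy receptor, fell to 51.5 ± 2.204 in WT CPZ, against 77.3 ± 9.18 in WT Ctrl (adjusted p = 0.000964). Bak1, which forms pores beside Bax, rose 1.34-fold in AHR CKO (adjusted p = 0.0473) and 1.31-fold in WT (adjusted p = 0.0404), calls that were lost without several single libraries (largest adjusted p = 0.311 in AHR CKO and 0.141 in WT). Of 9 stress factors that also act on the 10 genes, 5 rose in AHR CKO and 4 in WT, with Atf3, Atf5, Trib3 and Ddit3 in both, of which Atf3 and Trib3 averaged under 1 FPKM in both control groups and were tested because of their cuprizone libraries. Trib3, a pseudokinase target of ATF4 and CHOP, averaged 11.3 ± 0.542 FPKM in AHR CKO CPZ and 0.458 ± 0.155 in AHR CKO Ctrl, and 4.62 ± 1.24 in WT CPZ and 0.773 ± 0.587 in WT Ctrl. Ddit3, which encodes CHOP, averaged 122 ± 9.94 in AHR CKO CPZ and 44.2 ± 8.97 in AHR CKO Ctrl, and 79.7 ± 26.1 in WT CPZ and 42.4 ± 2.803 in WT Ctrl.

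**Figure D4:**
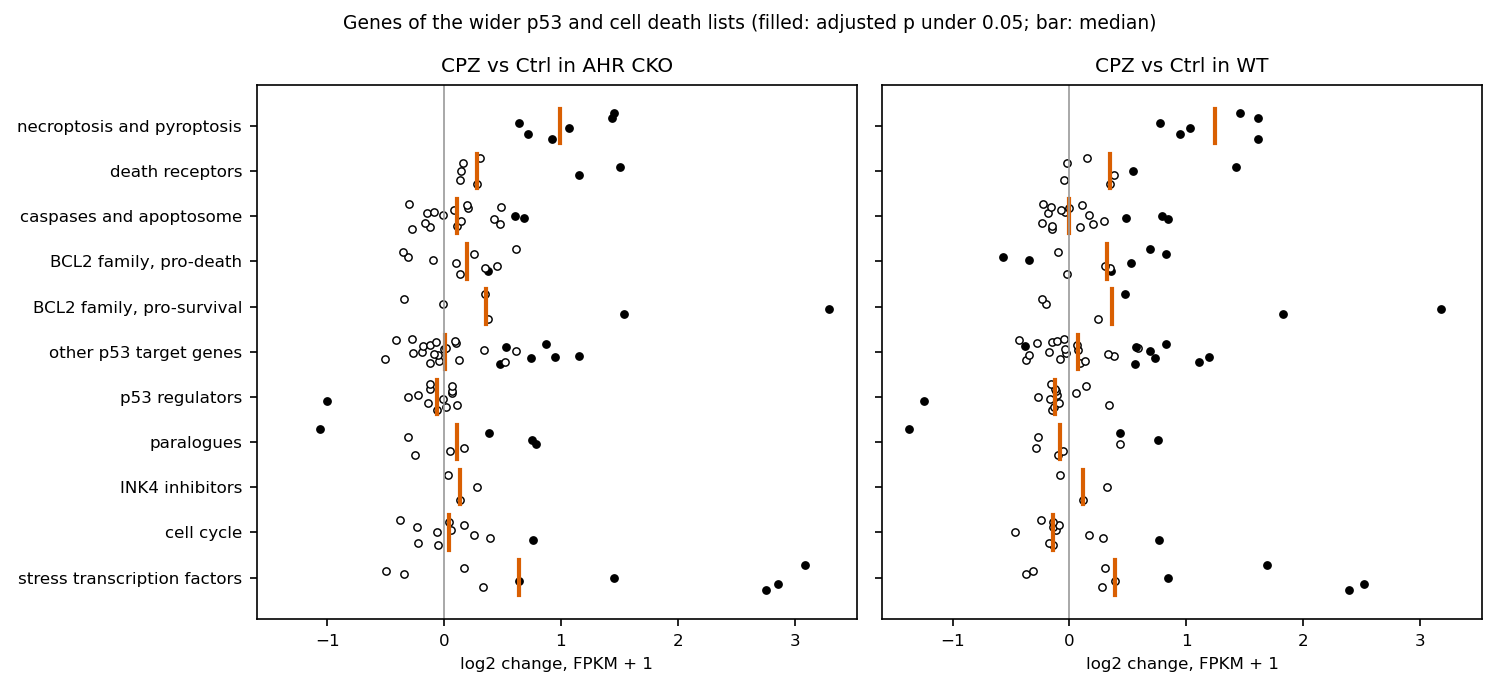
Change with cuprizone on the log2(FPKM + 1) scale for the tested genes of 11 lists in AHR CKO and in WT; filled points have an adjusted p under 0.05 and bars mark the median of a list. Of 26 further p53 target genes, 6 are filled in AHR CKO and 8 in WT, with medians of 0.01 and 0.07. Among the filled ones, Eda2r (both genotypes) and Pmaip1 (WT) averaged under 1 FPKM in both control groups. They were tested because of their cuprizone libraries. All 6 necroptosis and pyroptosis genes are filled, but 4 of them averaged under 1 FPKM in both control groups and were tested because of their cuprizone libraries.

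Between genotypes, 12 of the 112 wider genes were called higher and 7 lower in AHR CKO under cuprizone, and 5 higher and 5 lower under control treatment. These are 17.0% and 8.93% of the 112, against 20.0% and 6.19% of all tested genes. Of the 19 under cuprizone, 2 held under every alternative, Endog and Hipk2. Endog, a mitochondrial nuclease, averaged 25.7 ± 4.95 FPKM in AHR CKO CPZ and 11.7 ± 2.16 in WT CPZ (log2 change 1.07, adjusted p = 0.00377). Trib3 was higher in AHR CKO CPZ than in WT CPZ (log2 change 1.16, adjusted p = 0.00826), a call lost without the 3 libraries of low Cx3cr1 (adjusted p = 0.0523). After the length and GC correction 3 of the 19 calls were kept, and 1 of the 10 under control treatment. No wider gene passed the interaction test, and their median log2 changes between genotypes were -0.03 under cuprizone and -0.06 under control treatment.

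The genes whose 12 values most resembled those of Cdkn1a were found by the root mean square difference of centred log2(FPKM + 1) values among 12929 named genes. They were S100a6 (0.211), Cntf (0.278), Hmox1 (0.315), Apoe (0.326) and Tgif1 (0.328), where Cdkn1a itself spanned 2.64 on this scale. S100a6, a calcium-binding protein gene, ranged over 84.3 to 116 FPKM in AHR CKO CPZ and 17.1 to 25.6 in AHR CKO Ctrl, and over 66.1 to 84.7 in WT CPZ and 17.3 to 23.6 in WT Ctrl. Nearest to Trp53, which spanned 0.69, were Acox3 (0.0871), Nlrx1 (0.0887), Fzd6 (0.0954), Ndst2 (0.0956) and Tars (0.0981). A gene that varies little, such as Trp53, has many close neighbours by this measure, and the lists carry no test.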

How the data were processed

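Total RNA of mouse corpus callosum was extracted with Qiagen's RNeasy kit, and libraries were prepared by the SMARTER mRNA-Seq method, per the labels' protocols. Per the file headers, the deposited table gives FPKM by gene symbol for 12 libraries. Genome builds GRCm38 and mm10 are named in the submitters' processing notes. No source used here names the aligner, the quantifier, the annotation or an earlier filter. FPKM divides by length, yet a length trend that differs between libraries remains in it.

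Genes with at least 1 FPKM in at least 3 of 12 libraries were kept (13759 genes, 88.3%). On log2(FPKM + 1), which understates changes of low genes, the 4 group means were fitted with limma 3.58.1 in R 4.3.3 (eBayes with trend). P-values are two-sided and adjusted by Benjamini-Hochberg over all tested genes of a comparison. Folds are ratios of mean FPKM, and ± is the SD where not marked as SE. An exact permutation test of 3 against 3 libraries cannot go below p = 0.1. The code was tested on simulated data.

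The 10 genes, the 11 wider lists and the 11 marker lists were chosen with earlier results of these data known. Of 131 wider symbols, 122 were in the table, 3 under an older name. From each list up to 4 called genes with the smallest adjusted p were named, or, with no call, up to 2 genes of the highest mean level. Lengths, GC content and positions came from GENCODE M21 (GRCm38), with a length for 99.2% of tested genes, and the correction removed splines of 5 degrees of freedom on each. Leaving out the 3 AHR CKO libraries with Cx3cr1 under 2 FPKM was chosen after seeing the data. Another 25 rows carry a date in place of a symbol and are not named.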

Additional observations from a re-analysis of the deposited data

How the results depend on the processing

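Of the counts of called genes among the 10, those for cuprizone in WT and AHR CKO were 3 and 4, and leaving out each library in turn gave 2 to 4 and 1 to 5. The counts for AHR CKO against WT were 0 under control treatment (0 to 1 with a library left out) and 1 under cuprizone (0 to 4), and that for the interaction was 0 (0 to 0). With array quality weights the counts were 7 for cuprizone in AHR CKO, 2 and 8 for genotype under control treatment and cuprizone, and 2 for the interaction. For cuprizone in WT, Gadd45a then passed beside the 3 called (limma adjusted p = 0.0255). These weights ran from 0.338 to 6.93, so that 1 library carried most of the weight in AHR CKO CPZ (5.53 against 0.338 and 0.505) and in WT CPZ (6.93 against 0.476 and 0.43). For genotype under cuprizone the count was 2 on the TPM scale, 2 after quantile normalization and 0 with only the groups compared, and the cause was not tested. TPM moved the median log2 change of all genes there to -0.12. Without the 3 AHR CKO libraries of low Cx3cr1, which leaves fewer samples, the count was 1 for cuprizone in AHR CKO and 0 for genotype under cuprizone. The numbers of the libraries did not pair them: same-numbered libraries deviated together with r between -0.343 and 0.25, and 3 of 18 pairs passed 0.1. With the replicate number as a block the counts were 3 and 4 for cuprizone in WT and AHR CKO, 0 and 1 for genotype, and 0 for the interaction. No called gene among the 10 changed sign under any alternative run. With 3 libraries a group and FPKM without counts, small changes may be missed. With cuprizone, Trp53 in AHR CKO (log2 change 0.39, limma adjusted p = 0.0508) lay near the threshold. Further from it were Trp53 in WT (0.10, adjusted p = 0.622) and Bax in AHR CKO (0.26, adjusted p = 0.328) and WT (0.33, adjusted p = 0.17). Ccng1 was called in AHR CKO at a change like that of Trp53 there (0.39, adjusted p = 0.0212).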
